A study of Rattus norvegicus and Mus musculus with 18 samples.

Results

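The expression table of mouse skin wounds was searched by gene symbol for 9 transcription factors of epidermal lineage and differentiation. These were Trp63, Tfap2a, Gata3, Klf4, Ovol1, Grhl1, Grhl3, Zfp750 and Foxn1. All 9 were found among the 49548 genes of that table and all 9 were among the 15982 genes tested. The wounds were in skin of adult mice and were sampled on day 1 after the scab came off, whole pieces of each tissue being homogenised for RNA. Wound epidermis was compared with wound dermis, with 3 libraries in each group. The series also holds rat skin libraries, 18 libraries in all, which were not analysed here. The labels name no strain, sex, exact age, allele or drug for either group, and do not say whether the libraries are from different animals. P-values therefore measure the spread between these libraries. Levels are in TPM, a share of each library's transcripts that is scaled for gene length and can be compared between genes. The read depth is unknown, so no counting interval is given.

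These factors act at successive stages of a keratinocyte's life. Trp63, a relative of the tumour suppressor Trp53, sets up the stratified epithelium and maintains its basal, dividing layer, with the AP-2 factor Tfap2a and the zinc finger factor Gata3 as further regulators of the lineage. As cells leave the basal layer, Klf4, Ovol1, the grainyhead-like factors Grhl1 and Grhl3, and Zfp750 take part in growth arrest, differentiation and barrier formation. Foxn1, the gene mutated in nude mice, acts in the differentiation of keratinocytes of the hair follicle and the epidermis, and in the thymus.

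Trp63 is shown by sequence because a value per gene adds up its forms. In the GENCODE M21 annotation (GRCm38, the assembly also called mm10) the gene lies on the plus strand of chromosome 16 from 25683763 to 25892102. Of its 8 annotated coding transcripts with a complete start, 4 begin coding at position 25684290 and 4 at position 25802060. Each start is shown in its longest annotated form. The upstream start gives the TA forms, which carry the transactivation domain, and the downstream start gives the deltaN forms, which lack it and prevail in basal keratinocytes. Both join the same exon at position 25820388, after 324 coding bases in the upstream form and 42 in the downstream form. The lines below give the coding sequence around that junction, with the part that both forms share in capitals.
Trp63 upstream start, last 60 coding bases before the junction: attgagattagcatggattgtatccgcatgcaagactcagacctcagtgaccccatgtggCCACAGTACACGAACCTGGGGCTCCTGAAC
Trp63 downstream start, from its first coding base: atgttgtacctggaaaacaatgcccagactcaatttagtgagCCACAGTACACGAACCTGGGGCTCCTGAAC
Reads from the capital part and beyond are common to both, and the deposited values do not separate them.

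The grainyhead-like genes are shown because 2 of them, Grhl1 and Grhl3, are in the set and the third, Grhl2, is their nearest relative. Over the aligned coding bases of the longest annotated transcripts, Grhl1 and Grhl2 were 71.5% identical, Grhl1 and Grhl3 66.0%, and Grhl2 and Grhl3 64.9%. The most alike stretch of 90 coding bases has 68 bases in common to all 3 genes. The bases that differ between any of them are in capitals.
Grhl1 (chr12:24575975-24576064, plus strand): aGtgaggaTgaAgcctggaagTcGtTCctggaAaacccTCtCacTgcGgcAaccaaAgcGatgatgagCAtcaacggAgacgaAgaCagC
Grhl2 (chr15:37270660-37270749, plus strand): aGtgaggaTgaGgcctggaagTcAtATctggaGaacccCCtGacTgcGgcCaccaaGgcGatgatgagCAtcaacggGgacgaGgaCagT
Grhl3 (chr4:135561205-135561294, minus strand): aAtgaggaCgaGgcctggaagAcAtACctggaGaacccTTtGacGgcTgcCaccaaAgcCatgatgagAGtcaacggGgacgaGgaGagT
None of the 43-base windows of Grhl1 or Grhl3 transcripts, 43 bases being the shorter of the read lengths used, occurs in a transcript of another annotated gene. The same held for Trp63, Zfp750 and Foxn1. For Klf4 0.689% of the windows, for Gata3 2.75%, for Tfap2a 10.9% and for Ovol1 19.9% were shared with other genes on either strand. The values of these factors could include some reads of the genes that share the windows. Those genes were not all neighbours, and Tfap2a shared windows with Acaca and Nup98, which do not overlap it.

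The 3 wound dermis libraries were far apart in keratinocyte transcripts. The 8 keratinocyte markers include keratins and adhesion genes of the epidermis. They summed to 2567 TPM in replicate 1, 13510 TPM in replicate 2 and 472 TPM in replicate 3. The suprabasal keratins Krt1 and Krt10 weighed heavily in replicate 2, at 3683 and 5394 TPM, against 192 and 209 TPM in replicate 1. Fold changes are therefore also given without replicate 2 and without replicate 3.

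All 9 factors were higher in wound epidermis than in wound dermis. Each passed the limma test of log2(TPM + 1) at an adjusted p of 0.05, where 17.0% of the genes tested were called higher in epidermis, 39.3% lower and 56.3% either way, and the log2 fold changes ran from 2.04 for Foxn1 to 4.6 for Ovol1 with a median of 3.4. The median over all genes tested was -0.42 (-0.03 when libraries were scaled by median of ratios, 0.08 with quantile normalization). For all 9 the lowest epidermis library was above the highest dermis library, as for 20.8% of all genes, with 45.3% apart in the opposite direction. In bulk tissue, fewer cells of a type and less RNA per cell cannot be told apart. The higher share of all calls was 30.2%, and it was 47.2% and 52.8% with these scalings, under both of which the 9 factors were called higher.

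**Figure D1:**
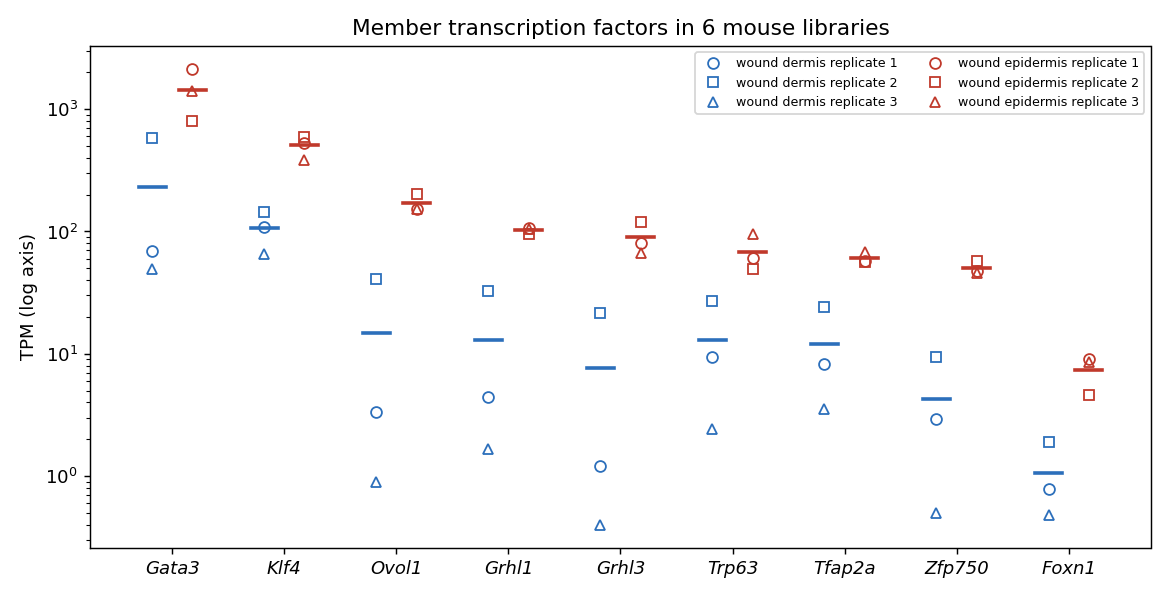
TPM (log axis) of the 9 factors in each mouse library, with wound dermis in blue, wound epidermis in red, a symbol for each replicate and a bar for the group mean of 3 libraries. Every epidermis library lies above every dermis library of the same gene, and wound dermis replicate 2 is the highest dermis library for all 9.

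Among the factors of the basal layer and the lineage, Trp63 (ENSMUSG00000022510) stood at 60.4, 49.0 and 94.7 TPM in wound epidermis replicates 1, 2 and 3 and at 9.38, 26.9 and 2.44 TPM in wound dermis replicates 1, 2 and 3. Epidermis replicate 3 was the highest and dermis replicate 3 the lowest, and the groups did not overlap. Trp63 was higher in epidermis by 2.73 on the log2 scale, with an SE of 0.71 (limma adjusted p = 0.014, and ± gives the SE for the other factors too). It stood at 1.97 without wound dermis replicate 3 and at 3.48 without wound dermis replicate 2.

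Tfap2a (ENSMUSG00000021359), on chromosome 13 from 40715302 to 40738376 (minus strand), stood at 57.6, 55.8 and 68.2 TPM in the epidermis libraries and at 8.27, 24.0 and 3.56 TPM in the dermis libraries. The epidermis libraries were close to each other, with a coefficient of variation of 11.03%. Its log2 fold change was 2.59 ± 0.56 (limma adjusted p = 0.0067), 2.01 without wound dermis replicate 3 and 3.24 without replicate 2. Exons of the opposite-strand gene Gm26688 overlap those of Tfap2a. This non-coding neighbour stood at 31.9 TPM on average in epidermis and 4.64 TPM in dermis. Exons of the opposite-strand genes Gm47061 and Gm47067 overlap too, and no value was found for either. SMART-seq2, the library method, does not mark the strand, so reads from the shared exons cannot be told apart.

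Gata3 (ENSMUSG00000015619), on chromosome 2 from 9857078 to 9890034 (minus strand), was the most abundant of the 9. It stood at 2137, 794 and 1400 TPM in the epidermis libraries, a mean above that of 99.5% of the genes tested, and at 68.8, 577 and 49.6 TPM in the dermis libraries. Dermis replicate 2 came close to epidermis replicate 2, and the lowest epidermis value was 1.38 times the highest dermis value, the narrowest gap of the 9. On the log2 scale it was higher in epidermis by 3.4 ± 0.9 (limma adjusted p = 0.015). Gata3 missed the threshold without wound dermis replicate 1 (2.97, adjusted p = 0.065) and without wound dermis replicate 3 (2.73, adjusted p = 0.053), and stood at 4.49 without replicate 2. Its opposite-strand neighbour Gm13256 stood at 10.3 TPM on average in epidermis and 1.18 TPM in dermis, far below Gata3 itself.

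Among the factors of differentiation, Klf4 (ENSMUSG00000003032), a zinc finger factor needed for the skin barrier, stood at 533, 596 and 386 TPM in the epidermis libraries and at 109, 145 and 66.0 TPM in the dermis libraries. It lies on chromosome 4 from 55527143 to 55532466 (minus strand). The dermis libraries were less far apart than for the other factors, and Klf4 was above 91.4% of the tested genes in dermis. Klf4 was higher by a log2 fold change of 2.28 ± 0.33 (limma adjusted p = 0.0012), 1.98 without wound dermis replicate 3 and 2.54 without replicate 2. With its mean at 4.74 times the dermis mean, Klf4 had the smallest ratio of mean TPM among the 9.

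Ovol1 (ENSMUSG00000024922), a zinc finger repressor that acts as progenitors stop dividing, lies on chromosome 19 from 5549136 to 5560646 (minus strand). It stood at 154, 203 and 152 TPM in the epidermis libraries and at 3.33, 40.5 and 0.89 TPM in the dermis libraries. Dermis replicate 2 was far above the other dermis libraries and still well below every epidermis library. On the log2 scale the fold change was 4.6 ± 1.02 (limma adjusted p = 0.0072), 3.66 without wound dermis replicate 3 and 5.88 without replicate 2. Of its 3488 exon bases 766 overlap opposite-strand genes. One of these, Gm31166, did not exceed 0.39 TPM in any library, and for the other, AC126029.1, no value was found.

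Grhl1 (ENSMUSG00000020656), an activator of desmosomal cadherin genes, stood at 107, 95.8 and 105 TPM in the epidermis libraries and at 4.46, 32.8 and 1.66 TPM in the dermis libraries. It was the steadiest of the 9 in epidermis, with a coefficient of variation of 6.01%. Grhl1 was higher by a log2 fold change of 3.72 ± 0.83 (limma adjusted p = 0.0077), 2.93 without wound dermis replicate 3 and 4.77 without replicate 2. Grhl1 lies on chromosome 12 from 24572283 to 24617391, on the plus strand.

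Grhl3 (ENSMUSG00000037188), needed for barrier formation and for closure of embryonic wounds, stood at 81.0, 120 and 67.1 TPM in the epidermis libraries and at 1.2, 21.6 and 0.40 TPM in the dermis libraries. It lies on chromosome 4 from 135541888 to 135573630 (minus strand). Its log2 fold change was 4.42 ± 0.96 (limma adjusted p = 0.0068), 3.64 without wound dermis replicate 3 and 5.64 without replicate 2. Dermis replicates 1 and 3 were near or under 1 TPM, where the added pseudocount of 1 TPM understates the fold, and with a pseudocount of 0.1 the log2 fold change was 5.17.

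Zfp750 (ENSMUSG00000039238), a zinc finger factor of terminal differentiation, lies on chromosome 11 from 121510978 to 121519333 (minus strand) within Tbcd, a gene of the opposite strand with which it shares no exon base. It stood at 47.3, 57.8 and 45.7 TPM in the epidermis libraries and at 2.92, 9.35 and 0.50 TPM in the dermis libraries. The lowest epidermis value was 4.89 times the highest dermis value, the widest gap of the 9. Zfp750 was higher by a log2 fold change of 3.7 ± 0.63 (limma adjusted p = 0.0025), 3.0 without wound dermis replicate 3 and 4.39 without replicate 2.

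Foxn1 (ENSMUSG00000002057), on chromosome 11 from 78357577 to 78386558 (minus strand), was the least abundant. It stood at 9.0, 4.63 and 8.51 TPM in the epidermis libraries and at 0.79, 1.92 and 0.48 TPM in the dermis libraries. The groups were apart, but both were low, and Foxn1 was above only 51.5% of the tested genes in epidermis. Its log2 fold change was 2.04 ± 0.34 (limma adjusted p = 0.0023), with a ratio of mean TPM of 6.94. Without wound dermis replicate 3 it was 1.83 and without replicate 2 it was 2.32. It depended on the pseudocount, at 1.02 with 5 TPM and 2.82 with 0.1 TPM.

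**Figure D2:**
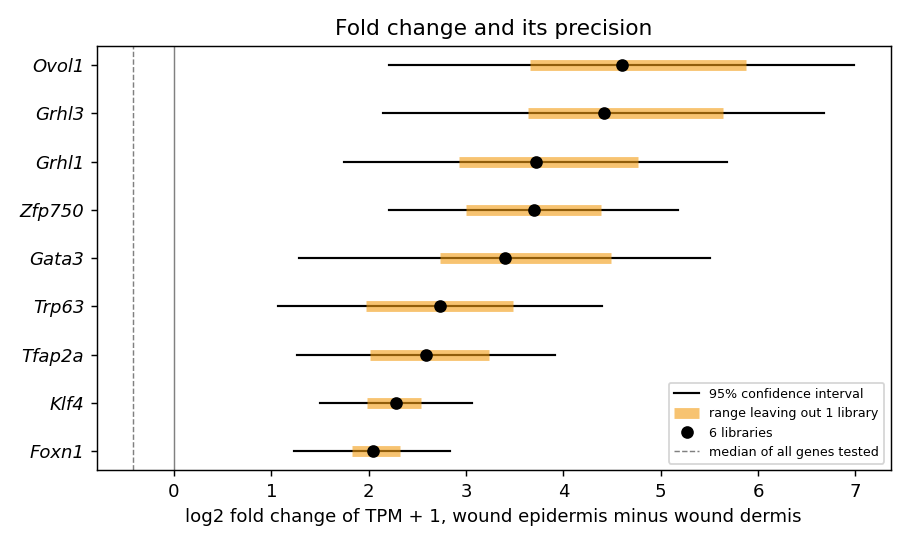
Log2 fold change of TPM + 1, wound epidermis minus wound dermis, for each factor, with its 95% confidence interval from limma (black line) and the range over fits that leave out 1 of the 6 libraries (orange). All 9 intervals lie above 0 and above the median of all genes tested, -0.42 (dashed); they run from 1.07 to 4.4 for Trp63 and from 2.21 to 6.99 for Ovol1, and overlap each other.

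By mean level in epidermis the order was Gata3 at 1444 TPM, Klf4 at 505 TPM, Ovol1 at 170 TPM (169.5 before rounding), Grhl1 at 103 TPM, Grhl3 at 89.4 TPM, Trp63 at 68.1 TPM, Tfap2a at 60.5 TPM, Zfp750 at 50.3 TPM and Foxn1 at 7.38 TPM. Gata3, Klf4 and Ovol1 were each above the next gene in every library, and so was Zfp750 above Foxn1. The other 4 of the 8 neighbouring pairs, from Grhl1 down to Zfp750, overlapped. In dermis 7 of 8 neighbouring pairs overlapped, and the exception was Klf4 above Ovol1.

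The dermis libraries differed from each other in how much of each factor they held. Replicate 2 was the highest and replicate 3 the lowest dermis library for all 9, where replicate 2 was the highest for 35.5% of all tested genes and replicate 3 the lowest for 29.9%. As a median over the 9, dermis replicates 1, 2 and 3 held 5.81%, 28.8% and 3.43% of the epidermis mean. The terminal differentiation list of 26 genes, among them loricrin and filaggrin, had medians of 2.21%, 21.2% and 0.53% in the same libraries. A list of 18 basal genes reported as Trp63 targets, such as Krt5 and Krt14, had medians of 25.3%, 43.3% and 3.36%. The layer in which each listed gene is expressed was not tested.

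Within a dermis library the shares differed from factor to factor, with no clear break between groups of them. In dermis replicates 1 and 3, Grhl3 stood at 1.34% and 0.45% of its epidermis mean and Ovol1 at 1.97% and 0.53%, near the medians of the differentiation list. Grhl1 stood at 4.34% and 1.62%, Gata3 at 4.76% and 3.43%, and Zfp750 at 5.81% and 0.99%. Trp63 stood at 13.8% and 3.59%, Tfap2a at 13.7% and 5.88%, and Foxn1 at 10.7% and 6.50%. Klf4 kept the largest share in both, at 21.5% and 13.1%. In dermis replicate 2 the shares lay closer together, from 18.6% for Zfp750 to 39.9% for Gata3.

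**Figure D3:**
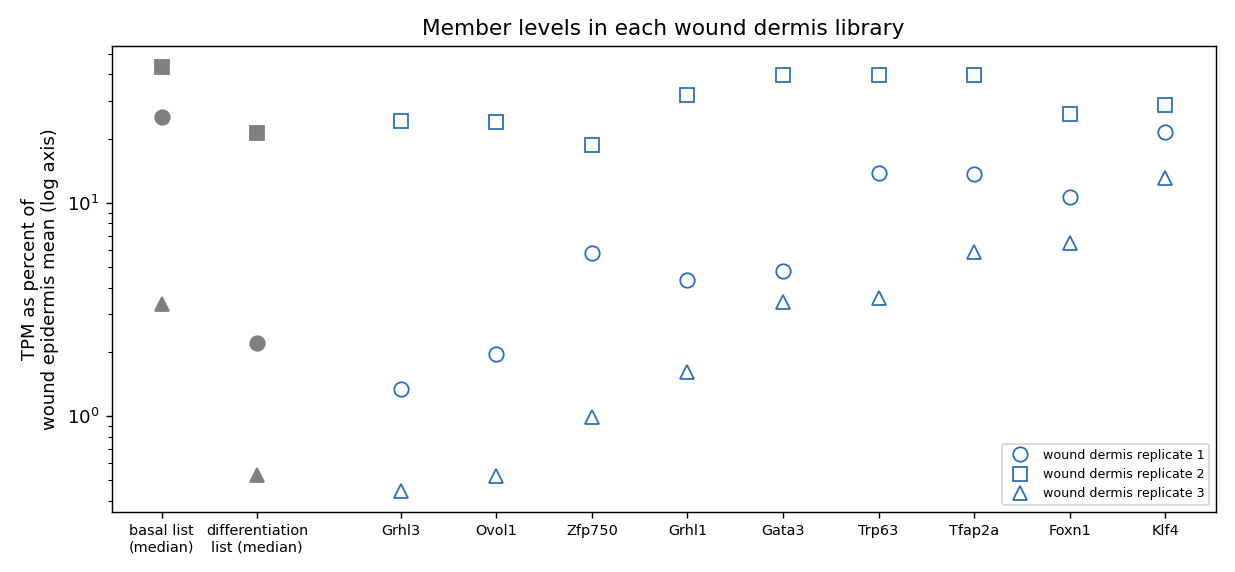
TPM of each factor in wound dermis replicates 1, 2 and 3 as a percent of its mean in wound epidermis (log axis, blue), with the medians of the basal and terminal differentiation lists in grey. Dermis replicate 2 holds 18.6% to 39.9% of the epidermis level of every factor, and in replicate 3 the shares run from 0.45% for Grhl3 to 13.1% for Klf4.

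The labelled tissues were checked against defining markers. The summed level of 8 keratinocyte markers was 42670 to 63340 TPM in epidermis, and 472 to 13510 TPM in dermis. Keratinocyte transcripts were thus present in every dermis library. Their sum was highest in dermis replicate 2 and lowest in replicate 3, as was each of the 9 factors. The spans differed in size, from 66.0 to 145 TPM in dermis for Klf4 and from 0.89 to 40.5 TPM for Ovol1. The 6 fibroblast markers summed to 9.67 to 100 TPM in epidermis and 42450 to 67060 TPM in dermis. Some of the 9 factors are known in other cells too, Gata3 in T cells, innate lymphoid cells and mast cells and Klf4 in endothelium and myeloid cells. The 9 T cell and innate lymphoid markers, none at 0 throughout a tissue, summed to 22.2 to 50.6 TPM in epidermis and 115 to 132 TPM in dermis. Of these, 5 were called lower in epidermis, among them Thy1 (-2.53) and Trac (-2.4), the most abundant in dermis. The other 4, Cd3e, Cd3d, Cd3g and Trdc, did not pass, at -0.10, -0.39, -0.11 and -0.35. Thy1 alone gave 56.9, 59.6 and 51.4 TPM of the sums in dermis replicates 1, 2 and 3. Whether it came from lymphoid cells was not tested, so the sums do not measure how many of these cells each tissue held. The 6 mast cell markers summed to 0.36 to 1.45 TPM in epidermis, with Cpa3, Mcpt4 and Fcer1a listed at 0 in all 3 libraries, and to 179 to 563 TPM in dermis. The 6 endothelial markers summed to 3.56 to 10.2 TPM in epidermis and 228 to 366 TPM in dermis, and the 7 macrophage markers to 62.3 to 76.5 and 1348 to 2524 TPM. The 6 melanocyte markers did not sum to more than 6.31 TPM in epidermis or 10.3 TPM in dermis, and the 7 hair shaft and inner root sheath markers summed to 10.6 to 17.0 and 6.0 to 12.5 TPM. The part of these cells in the levels of the 9 factors was not tested.

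To set the factors against keratinocyte transcripts of the same library, the mean log2(TPM + 1) of a reference was subtracted from that of each factor. The reference genes were Krt5, Krt14, Dsg3, Dsc3, Sfn and Col17a1. All of them are also in the list of basal genes reported as Trp63 targets, and no reference from the terminal differentiation list was used. Whether each reference gene is confined to the basal layer was not tested. As a geometric mean this reference stood at 380, 244 and 532 (TPM + 1) in epidermis replicates 1, 2 and 3 and at 68.6, 146 and 12.7 in dermis replicates 1, 2 and 3. The subtraction takes the same amount off the difference of every factor, so it leaves their order as it was and the sign of a factor depends on the reference. The log2 ratio of Trp63 averaged -2.46 in epidermis and -2.33 in dermis, a difference of -0.13. That of Ovol1 averaged -1.12 in epidermis and -2.85 in dermis, a difference of 1.73. For Ovol1 alone among the 9 the groups did not overlap. The share of all genes without overlap on this ratio was not computed, so this does not single Ovol1 out. Grhl3 differed by 1.55, Grhl1 by 0.85, Zfp750 by 0.83 and Gata3 by 0.53, while Tfap2a stood at -0.28, Klf4 at -0.59 and Foxn1 at -0.83.

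None of these 9 differences passed a two-sided exact permutation test over the 6 libraries. The smallest p that 3 against 3 libraries allow is 0.10, which Ovol1 reached, and the p of Trp63 was 0.80, with adjusted values over the 9 of 0.60 to 0.80. The sign of 4 factors changed when a single dermis library was left out. Without wound dermis replicate 3 the differences of Trp63, Klf4 and Tfap2a were 0.09, 0.10 and 0.14, and without wound dermis replicate 1 that of Gata3 was -0.13.

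The 3 epidermis libraries also differed among themselves, and the factors did not all follow the same order. Trp63, Tfap2a, Gata3, Grhl1 and Foxn1 were lowest in epidermis replicate 2, as were 58.7% of all tested genes. Grhl1 and Tfap2a deviated there by only -0.10 and -0.11 from their epidermis mean of log2(TPM + 1). Klf4, Ovol1, Grhl3 and Zfp750 were highest in replicate 2 and lowest in replicate 3. Of all tested genes 19.4% were highest in replicate 2 and 17.9% lowest in replicate 3. Of the 18 basal genes 16 were lowest in epidermis replicate 2, as were 58.7% of all tested genes, and 22 of the 26 differentiation genes were highest there, against 19.4% of all tested genes. Krt14 stood at 7525, 5551 and 14970 TPM in epidermis replicates 1, 2 and 3, and Krt10 at 21984, 35714 and 12226 TPM. With 3 libraries this is a description and no test was made.

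**Figure D4:**
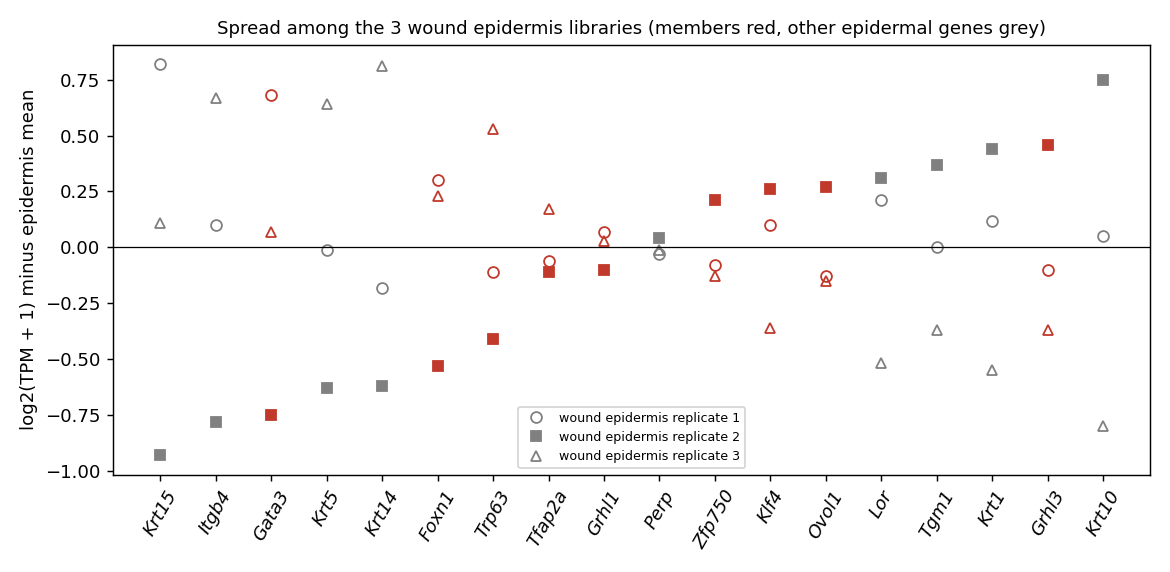
Deviation of log2(TPM + 1) from the mean of the 3 wound epidermis libraries, for the 9 factors (red) and 9 keratin, adhesion and barrier genes (grey), ordered by replicate 2 (filled squares). Gata3 lies at -0.75 in replicate 2 and Grhl3 at 0.46, on the sides where the basal keratins Krt5 and Krt14 and the suprabasal keratins Krt1 and Krt10 lie.

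The 25 relatives of the 9 factors gave a mixed picture. Of 16 tested relatives 6 were higher and 5 lower in epidermis, with a median log2 fold change of 0.10, against 7 and 4 after median-of-ratios scaling. Grhl2 rose by 2.60 and stood at 17.7 to 27.5 TPM in epidermis, below both Grhl1 and Grhl3 in every epidermis library. Among the Krüppel-like factors Klf5, an activator of proliferation in basal cells, rose by 2.99, Klf3 by 2.52 and Klf10 by 1.34, while the endothelial factor Klf2 fell by 2.44, Klf7 fell by 2.05 and Klf9 fell by 2.96. Klf13 stood at -1.1 (limma adjusted p = 0.037) and did not pass in 5 of the 6 fits that leave out a library or after median-of-ratios scaling (-0.63, adjusted p = 0.10). Nor did it pass in limma without the filter (adjusted p = 0.08) or with a replicate term (adjusted p = 0.059). Klf6 stood at -0.52 and did not pass (adjusted p = 0.060).

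Gata2, the factor of mast cells and endothelium, fell by 2.14, from 3.67 to 4.78 TPM in dermis to at most 0.32 TPM in epidermis. Ovol2 stood at 0.23 and did not pass at 1.84 TPM or less (limma adjusted p = 0.55), but rose by 0.97 under quantile normalization (adjusted p = 0.0085). Tfap2c rose by 2.99 and reached 38.5 to 68.1 TPM in epidermis, close to Tfap2a, and Tfap2e rose by 1.30. Trp53 stood at -0.78 (adjusted p = 0.056), and -1.02 (adjusted p = 0.022) without wound epidermis replicate 3. Foxn2 stood at 0.05 and Foxn3 at 0.15, neither passing, though Foxn3 rose by 0.62 after median-of-ratios scaling (adjusted p = 0.015). Trp73 and Tfap2b were too low to be tested, at no more than 1.62 TPM. Without wound dermis replicates 1, 2 and 3 in turn, 3 relatives were lower in each fit, of the 15 tested. In those fits a gene above 1 TPM only in dermis, such as Gata2, cannot meet the filter of 1 TPM in 3 libraries. Part of the lower count is therefore due to the filter.

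Other regulators of the epidermis were mostly higher as well. Of 30 listed and tested, 20 were higher and 6 lower, with a median of 1.38. The distal-less factor Dlx3 rose by 4.69 and Dlx5 by 3.67, the ETS factor Ehf rose by 3.66, and Barx2 by 3.33. Nfe2l2, Fosl2, Id1 and Elf5 did not pass, at -0.11, -0.03, 0.50 and 0.50, and Id1 and Elf5 passed after median-of-ratios scaling, at 0.95 (limma adjusted p = 0.037) and 0.80 (adjusted p = 0.011). The 6 lower genes, named after their values were seen, were Ets1 at -3.04, Runx1 at -2.22, Satb1 at -1.28, Sox9 at -1.14, Ahr at -1.09 and Maf at -0.76. Of the 30 genes 3 were lower with median-of-ratios scaling and 2 with quantile normalization, with Sox9, Ahr and Maf not passing in either. Without wound dermis replicate 1 the number lower was 3.

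Of the 18 basal genes reported as Trp63 targets 10 were higher, 0 lower and 8 did not pass, with a median of 1.74, and 13 were higher after median-of-ratios scaling. Krt15 rose by 4.44, Perp, a desmosomal protein, by 4.07, Pkp1 by 3.96 and Sfn by 3.54. Itga6 at 0.19, Dst at -1.0 and Fgfr2 at -0.22 did not pass; Itga6 rose by 0.66 after median-of-ratios scaling (limma adjusted p = 0.019), and Dst fell by 1.39 without wound epidermis replicate 1 (adjusted p = 0.036). Krt15 missed the threshold without wound dermis replicate 1 or 3 or wound epidermis replicate 1 or 3 and without the filter, and Sfn without wound dermis replicate 1, wound epidermis replicate 1 or 3 or the filter. This count rested on single libraries and on the filter. The number higher was 4 without wound dermis replicate 1, wound epidermis replicate 1 or wound epidermis replicate 3, and 4 without the filter.

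All 26 terminal differentiation genes were higher, with a median of 4.86. The number called was 21 without wound dermis replicate 1, where Krt1, Krt10, Ivl, Flg2 and Cers3 missed the threshold (limma adjusted p = 0.051 to 0.056), and 23 without wound epidermis replicate 2. They were led by Lor at 6.21, Flg at 5.95, Cdsn, which joins corneocytes, at 5.70 and the protease Klk5 at 5.59. Of 20 mesenchymal transcription factors 17 were tested and 16 were lower, with a median of -4.53, among them Ebf1 at -6.23, Twist2 at -5.97, Zeb2 at -5.42 and Osr2 at -5.36. Snai2, which basal keratinocytes also express, was the exception at -1.01 (limma adjusted p = 0.065), with 5.11 to 17.4 TPM in epidermis. It passed without wound epidermis replicate 3, at -1.35 (adjusted p = 0.022). With a dermis library left out only 2 of the mesenchymal genes met the filter, which asks for 1 TPM in 3 libraries, and 1 of them was lower.

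Across the 6 libraries the 9 factors followed each other closely, with Pearson's r of log2(TPM + 1) between 0.89 and 1.00 (0.894 to 0.997) over their 36 pairs. All pairs share the difference between the tissues and the spread of the dermis libraries, so r is a description. Among 8350 other genes whose mean reached 10 TPM in either tissue, those most like Trp63 were Gsdmc (r = 0.998), Pls3 (0.997) and Gsdmc4 (0.997). Grhl1 was most like the protease genes Tmprss4 and Tmprss13 and Tmem54 (each 0.999), and Grhl3 most like Calml3 (r = 1.00, 0.9995 before rounding), Fndc9 and the tight junction gene Cldn4 (each 0.999). The closest to Ovol1 were the kallikrein Klk8, Cyp4f39 and Stfa3, and the closest to Klf4 were Pim1, Sowahc and Arl5b. For Tfap2a they were Cd24a, Mpzl2 and Cxadr. Zfp750 was closest to Myo5b, Mvk and Tm7sf2, Gata3 to Capns2 and H3f3b, and Foxn1 to Hook2, Tmem184a and Emc9.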

How the data were processed

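The 6 mouse libraries were made with SMART-seq2, which copies polyadenylated RNA into full-length cDNA, and read single-end at 86 or 43 bases, per the labels' protocols. The deposited values are TPM, as computed by the authors. Bowtie 1.0.0 and RSEM 1.2.31 with mm10 are named per the submitters' processing notes, while annotation and settings are not given in the sources used. Symbols were paired by Ensembl identifier for 49289 of 49548 genes. Because TPM sums to a fixed total, abundant genes that differ between tissues shift the others. Depth is unknown.

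Wound epidermis was compared with wound dermis by limma 3.58.1 in R 4.3.3 on log2(TPM + 1), with the mean-variance trend, over the 15982 genes that reached 1 TPM in 3 or more libraries. P-values were adjusted by Benjamini-Hochberg over these genes. The fit was tested on simulated data. A family member or list gene was named by rule. All tested relatives of the members were eligible, and in each further list the 4 called genes with the largest change and up to 4 abundant genes that did not pass. Likeness to a member left out the other members and genes with clone names. Some genes that the rule names are not reported here. The 9 factors and all lists were chosen with earlier results of these data known. Coordinates and sequences are from GENCODE M21. Alternatives were other pseudocounts, filters and scalings, a replicate term and leaving out each library.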

Additional observations from a re-analysis of the deposited data

How the results depend on the processing

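The 9 factors kept their direction in each of the fits run, and all that were tested were called higher except Gata3 without wound dermis replicate 1 or 3. With a filter of 5 TPM 8 factors were tested, Foxn1 lying below it. Leaving out each library in turn, 8 to 9 of the 9 were called, 5288 to 8546 genes were called in all, against 8996. The number of factors above dermis relative to the keratinocyte reference, 5, was 4 to 8. Since one amount is subtracted from all 9, this number depends on the level of the reference. The highest adjusted p of limma over these fits was 0.048 for Trp63 and 0.065 for Gata3. The fewest genes were called without wound dermis replicate 3, with 5427 called without wound dermis replicate 1 and 6426 without wound dermis replicate 2. In these fits 13853, 13855 and 13823 genes met the filter, against 15982 with all libraries. The labels give both groups the same replicate numbers, which were not treated as pairs in the main fit. Deviations of same-numbered libraries correlated across genes at -0.14, 0.09 and 0.19. Taken from means of only 3 libraries, these deviations cannot show whether same-numbered libraries share an animal. Of the epidermis libraries replicate 3 correlated best with its own number, and replicates 1 and 2 did not. With the replicate block 8404 genes and all 9 factors were called. Without the filter 4 of the 18 basal genes were called higher, against 10. No depth limit can be given for TPM, and low factors depend on the pseudocount: with 5 and 0.1 TPM the log2 fold change was 1.02 and 2.82 for Foxn1 and 3.26 and 5.17 for Grhl3.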
